A study of Mus musculus with 2 samples.

Results

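The nerve-related microRNA genes Mir338, Mir3065, Mir9-1, Mir9-2, Mir9-3, Mir124a-1, Mir124a-2, Mir124a-3, Mir137 and Mir153 were followed in mouse calf muscle. They were taken by name, as the rows whose Ensembl identifier carries that symbol in GENCODE M21, and make up 10 of the 2202 microRNA gene rows of each count table. MicroRNA sequencing libraries were made from total RNA of the gastrocnemius of female B6CASTF1/J mice, the F1 hybrid strain of C57BL/6J with CAST/EiJ, at an age of 25 days. For both libraries the sample labels give a size below 30. The 2 libraries are biological replicates 1 and 2 of 1 group, with no treatment and no other tissue. The labels number the females separately but give both the same donor identifier, so every error below is the spread between these 2 libraries, which may be technical.

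MicroRNAs are cut from hairpin precursors, and bases 2 to 8 of the mature strand, the seed, pair with target messenger RNAs. miR-338 is known from glia that make myelin: oligodendrocytes in the brain and spinal cord, and Schwann cells in peripheral nerve. miR-9, miR-124, miR-137 and miR-153 are known from neurons, where miR-9 and miR-124 are linked to neuronal differentiation, miR-137 to synapse and dendrite formation and miR-153 to repression of synuclein and other vesicle-related genes. A muscle holds axons of motor and sensory neurons wrapped by Schwann cells, whereas the cell bodies of these neurons lie in the spinal cord and in ganglia.

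The mature sequences of the members found in RefSeq (GRCm38.p6) are shown first, because seed and copy number decide how each gene can be read and counted. Capitals mark the seed, and 7 of the 10 members had an entry.
miR-338-3p: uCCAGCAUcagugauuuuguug
miR-338-5p: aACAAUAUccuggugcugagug
miR-3065-5p: uCAACAAAaucacugaugcugg
miR-9-5p: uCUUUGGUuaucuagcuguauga
miR-9-3p: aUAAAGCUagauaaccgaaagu
miR-137-5p: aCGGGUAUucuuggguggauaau
miR-137-3p: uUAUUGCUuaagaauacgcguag
miR-153-5p: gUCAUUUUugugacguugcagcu
miR-153-3p: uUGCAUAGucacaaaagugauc
These seeds all differ from each other, and none of them was found in another mature microRNA among the 1738 mature entries of the table. Mature miR-9-5p and miR-9-3p are each encoded at 3 loci, and the mature products of Mir338, Mir3065, Mir137 and Mir153 at 1 locus each. The Mir124a-1, Mir124a-2 and Mir124a-3 genes had no entry.

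Levels are counts on the strand of the gene per 1000000 such counts (CPM), of which replicate 1 held 1573213 and replicate 2 held 5429127. One count equalled 0.636 CPM in replicate 1 and 0.184 CPM in replicate 2, so a gene listed at 0 could still have reached 1.91 CPM in replicate 1 or 0.553 CPM in replicate 2 (the level of 3 counts). All intervals below are exact (Clopper-Pearson or binomial) 95% intervals and, like these limits, cover counting error only. The tissue was checked against 10 striated muscle genes, all of which reached 2 CPM in both libraries. Their summed level was 36393 CPM in replicate 1 against 75014 CPM in replicate 2. Nearly all of it was Mir206 (34864 CPM in replicate 1 against 72482 CPM in replicate 2). Multiply aligned reads enter no gene's count, so this is the make-up of the counted reads, not of all muscle microRNA.

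As counted, the nerve set was almost wholly Mir338. Reads of miR-9 and miR-124 that align to several places enter no count, so the part of these microRNAs in the set is not known. The 10 genes together held 1622 CPM in replicate 1 (interval 1559 to 1686) and 765 CPM in replicate 2 (742 to 788), a mean of 1193 ± 606 CPM (SD, n = 2). Mir338 contributed 2487 of their 2551 counts in replicate 1 and 4067 of 4151 in replicate 2. At a minimum of 2 CPM in both libraries, Mir338 and Mir137 were detected, 2 of 10 members, against 14.7% of all rows. At least 1 count in both libraries was found for 5 members, adding Mir3065, Mir153 and Mir9-3, against 21.3% of all rows.

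**Figure D1:**
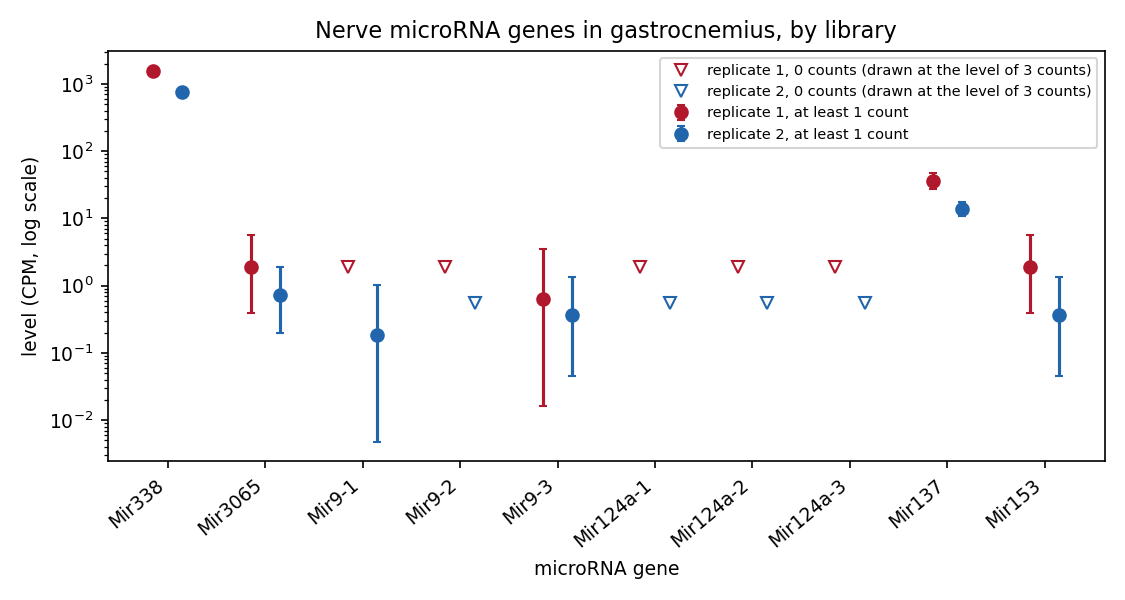
Level of each of the 10 genes (CPM, log axis) in replicate 1 (red, left of each pair) and replicate 2 (blue); bars are exact 95% intervals and open triangles mark a count of 0, drawn at the level of 3 counts. Mir338 lies far above the rest, Mir137 is second, and the other 8 genes have between 0 and 4 counts per library.

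Mir338 (ENSMUSG00000065600.1), the glial member, had 1581 CPM in replicate 1 (interval 1519 to 1644) and 749 CPM in replicate 2 (726 to 772), a mean of 1165 ± 588 CPM (SD, n = 2). It was well inside the expressed range, at rank 61 of 520 genes with a count in replicate 1 and rank 77 of 614 in replicate 2. Its hairpin spans mm10 chr11:120014765-120014862 on the reverse strand, in an intron of the kinase gene Aatk and on the same strand as that gene. By mean level the gene directly above it was Mir106b, at 1183 ± 541 CPM, and directly below it Mir196a-2, at 1128 ± 4.46 CPM. Both means differed from that of Mir338 by less than its spread between libraries.

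Mir3065 (ENSMUSG00000105524.1) is annotated on the forward strand of the same locus, at chr11:120014767-120014853, and all 87 bases of its hairpin lie opposite Mir338. The hairpins are printed 5′ to 3′ with the mature microRNAs in capitals, to show that the mature strands face each other.
Mir338 hairpin: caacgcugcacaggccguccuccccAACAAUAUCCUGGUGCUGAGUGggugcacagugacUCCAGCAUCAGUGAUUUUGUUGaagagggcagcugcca
Mir3065 hairpin: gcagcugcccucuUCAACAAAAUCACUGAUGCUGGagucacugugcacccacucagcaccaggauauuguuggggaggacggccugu
miR-3065-5p and miR-338-3p overlap by 21 bases and are complementary over them, so, as the columns are read here, the strand of a read decides which gene it counts for. Mir3065 had 3 counts in replicate 1 (1.91 CPM) and 4 counts in replicate 2 (0.737 CPM). The locus was thus read almost entirely from the Mir338 strand. Mir3065 made up 0.120% of the reads of the locus in replicate 1 (interval 0.0249 to 0.352) and 0.0983% in replicate 2 (0.0268 to 0.251). When strand was ignored, both genes were listed at 0. The tally of ambiguous reads then held 356588 in replicate 1 and 1318706 in replicate 2, against 0 by strand in both, and the 67 genes that overlap another microRNA gene went down to 3 counts in replicate 1 (356591 by strand) and 11 in replicate 2 (1318717 by strand).

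Few reads as these are, they formed a larger share than the pooled reads on the wrong strand elsewhere. At the 2135 genes that overlap no other microRNA gene, reads on the opposite strand made up 0.00477% in replicate 1 (interval 0.00362 to 0.00616) and 0.00192% in replicate 2 (0.00152 to 0.0024). The intervals for Mir3065 lie above these in both libraries. However, the pooled intervals leave out the spread between genes, and Mir3065 rests on 3 counts in replicate 1 and 4 in replicate 2. Of such genes with at least 1000 reads, none of 74 in replicate 1 and 3 of 124 in replicate 2 (Mir671, Mir152 and Mir203) had a larger opposite-strand share than the Mir338 locus. Among 13 pairs of microRNA genes on opposite strands with at least 1000 reads in each library, the weaker gene had a larger share than Mir3065 in 2 pairs, Mir486 with Mir3107 and Mir337 with Mir3544, and was at 0 in both libraries in 7 pairs.

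**Figure D2:**
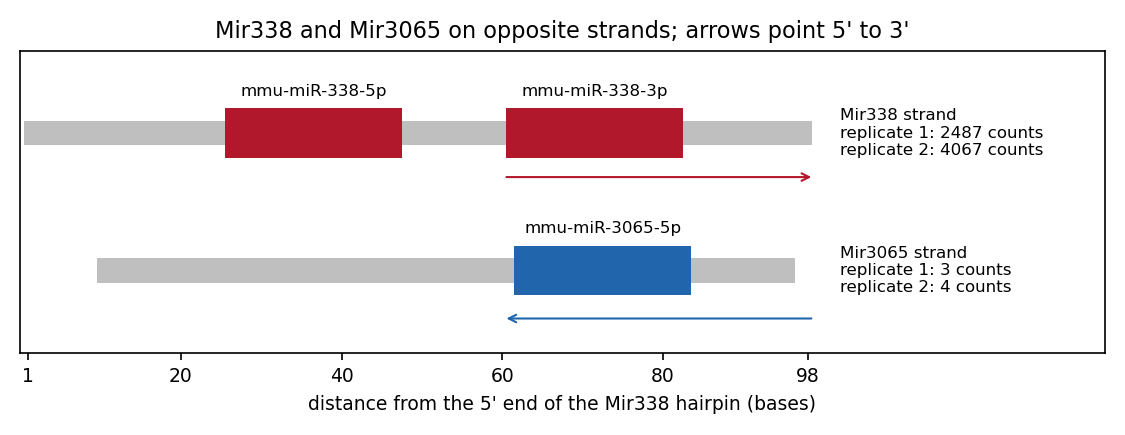
Map of the locus by distance from the 5′ end of the Mir338 hairpin (bases), with hairpins in grey, mature microRNAs in colour and the counts of each strand at the right. The 2487 and 4067 counts of replicates 1 and 2 on the Mir338 strand stand against 3 and 4 on the Mir3065 strand.

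Among the neuronal members, Mir137 was the one gene with more than a few counts. Mir137 (ENSMUSG00000065569.2), on chr3:118433857-118433929 and overlapping an exon of the non-coding gene Gm26871, had 57 counts or 36.2 CPM in replicate 1 (interval 27.4 to 46.9) and 75 counts or 13.8 CPM in replicate 2 (10.9 to 17.3). Its mean was 25.0 ± 15.9 CPM (SD, n = 2), at rank 212 in replicate 1 and 241 in replicate 2. Between Mir338 and Mir137 the intervals did not meet in either library: 43.6 reads of Mir338 were counted per read of Mir137 in replicate 1 and 54.2 in replicate 2. Mature products of the members are 22 or 23 bases long, and no scaling by length was applied.

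Mir153 (ENSMUSG00000065538.1), at chr12:117250817-117250885 in an intron of Ptprn2, a gene of secretory vesicles, had 3 counts or 1.91 CPM in replicate 1 (interval 0.393 to 5.57) and 2 counts or 0.368 CPM in replicate 2 (0.0446 to 1.33). Like Mir137, its mature sequences had 1 locus in the RefSeq table, and none of the 48 windows of 22 bases in its hairpin occurred in another of the 1005 hairpins. Mir153, Mir3065, Mir9-3 and Mir9-1 could not be ordered, as their intervals overlapped in both libraries.

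The Mir9 genes were counted near or at 0. Mir9-3 (ENSMUSG00000093238.1, chr7:79505264-79505353, in an intron of Mir9-3hg) had 1 count in replicate 1 and 2 counts in replicate 2. Mir9-1 (ENSMUSG00000106493.1, chr3:88215598-88215686, in an intron of Gm3764) had 0 counts in replicate 1 and 1 count in replicate 2. Mir9-2 (ENSMUSG00000065424.2, chr13:83738814-83738885, overlapping an exon of C130071C03Rik) had none in either library. These counts cannot stand for the level of miR-9. The hairpins are shown with the runs common to all 3 in capitals.
Mir9-1 hairpin: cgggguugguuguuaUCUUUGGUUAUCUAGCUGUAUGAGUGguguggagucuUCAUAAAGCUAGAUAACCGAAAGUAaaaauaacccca
Mir9-2 hairpin: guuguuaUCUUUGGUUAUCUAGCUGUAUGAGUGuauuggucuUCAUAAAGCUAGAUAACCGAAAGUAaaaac
Mir9-3 hairpin: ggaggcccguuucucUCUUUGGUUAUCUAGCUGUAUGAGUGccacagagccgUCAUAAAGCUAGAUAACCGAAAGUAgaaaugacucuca
The runs are 26 and 25 bases long and hold the whole of miR-9-5p and miR-9-3p. A read of either mature strand therefore matches 3 places, and multiply aligned reads, 68.6% of those of replicate 1 and 69.7% of those of replicate 2, were given to no gene. A read could fall to a single Mir9 gene through bases outside the runs: of the windows of 22 bases, 44 of 68 in Mir9-1, 27 of 51 in Mir9-2 and 60 of 69 in Mir9-3 occurred in no other hairpin. How many of the unassigned reads came from miR-9 was not tested. Mir9-1 also lies opposite another annotated microRNA gene, Gm25641, which had 0 counts in both libraries.

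**Figure D3:**
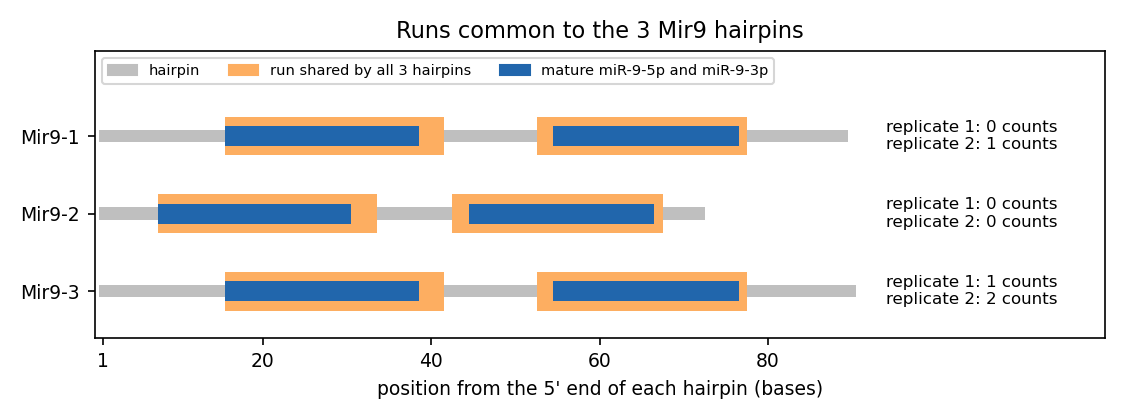
The hairpins of Mir9-1, Mir9-2 and Mir9-3 by position from their 5′ ends (bases), with the runs common to all 3 (26 and 25 bases, orange), the mature microRNAs inside them (blue) and the counts per library. The mature microRNAs lie wholly inside the common runs, and no hairpin has more than 2 counts in a library.

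Mir124a-1 (ENSMUSG00000065597.1, chr14:64590657-64590741), Mir124a-2 (ENSMUSG00000093073.1, chr3:17795662-17795770) and Mir124a-3 (ENSMUSG00000065454.2, chr2:180894040-180894107), which each overlap an exon of a long non-coding RNA gene on the same strand, had no count in either library, which allows up to 1.91 CPM in replicate 1 against 0.553 CPM in replicate 2 for each (the level of 3 counts). The 3 genes are known to encode the same mature microRNA, so the same limit on reads aligned to several places applies, and an absence of miR-124 is not shown.

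Mir338 and Mir137 were both higher in replicate 1. Mir338 was 2.11-fold higher there (interval 2.01 to 2.22; log2 ratio of replicate 1 over replicate 2 1.08), with an adjusted p of 1.5e-173 in a two-sided exact binomial test. Mir137 was 2.63-fold higher (1.83 to 3.75; log2 ratio 1.39), with an adjusted p of 7.5e-07 in the same exact test. The test was run on all 364 genes that had 10 or more counts in total, takes in counting error alone, and compares 2 libraries of 1 group, not conditions. Both testable members were called, against 45.3% of all genes tested, 30.2% being higher in replicate 1 and 15.1% higher in replicate 2. That split of 110 and 55 genes became 90 and 76 with TMM scaling and 80 and 95 with DESeq2 size factors, whereas both members remained higher in replicate 1 and past the test. In bulk tissue, fewer cells of a type and less RNA per cell cannot be told apart.

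The ratios were then set beside those of other genes. Over 324 detected genes, edgeR put the coefficient of variation between libraries at 24.6%, equal to a single-gene SD of 0.50 on the log2 scale, so that the ratio of Mir338 was about as large as that SD taken 2 times. Over all 364 genes the median log2 ratio was 0.15, with quartiles of -0.14 and 0.49, and 39 genes lay above Mir338. For the 93 genes with a mean level within 4-fold of that of Mir338, a range chosen after the values were seen, the quartiles were -0.14 and 0.28, and 4 had a higher ratio than Mir338: Mir142, Mir144, Mir451a and Mir708. For the 110 genes within 4-fold of Mir137 the quartiles were -0.03 and 0.76, and 9 had a higher ratio than Mir137. These were Gm47302, Mir106a, Mir1298, Mir138-1, Mir182, Mir183, Mir200c, Mir598 and Mir92b. Mir138-1 is on the glial list described below, and Mir182, Mir183 and Mir200c are on the epithelial list.

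**Figure D4:**
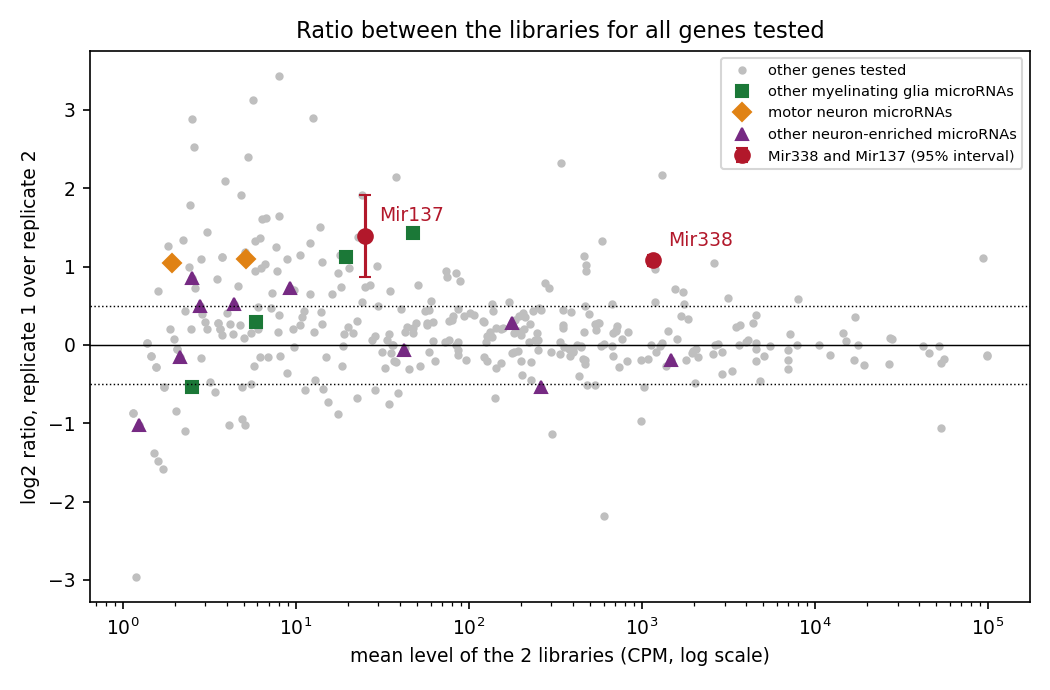
Log2 ratio of replicate 1 over replicate 2 against mean level (CPM, log axis) for the 364 genes tested; dotted lines mark the single-gene SD of 0.50. Mir338 (1.08) and Mir137 (1.39) lie above the upper line, and so do Mir138-1, Mir138-2, Mir218-1 and Mir218-2. Of the glial list, Mir219a-2 (0.30) lies between the lines and Mir219a-1 (-0.53) below the lower line. Genes of the other neuron-enriched list lie above, between and below the lines.

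The ratio of Mir338 to Mir137 needs no library total. Mir338 per Mir137 in replicate 1 was 0.805 times that in replicate 2 (interval 0.560 to 1.16), and the difference did not pass a two-sided Fisher's exact test (p = 0.239). The gene with the level most like that of Mir338, by distance in log2(CPM + 1) over both libraries (n = 2), was Mir106b, with 1565 CPM in replicate 1 against 800 CPM in replicate 2. Mir20a, Mir29a, Mir196a-2 and Mir451a came next, with distances from 0.40 to 0.79 against 0.10 for Mir106b.

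Other glial and motor neuron microRNAs were low. Mir138-1 and Mir138-2, whose product is known from oligodendrocytes and Schwann cells, passed the test, both higher in replicate 1, among 5 further glial genes of which 4 could be tested. Over all genes tested, 30.2% were higher in replicate 1. Mir138-1 had 69.3 CPM in replicate 1 against 25.8 CPM in replicate 2, and Mir138-2 had 26.7 CPM in replicate 1 against 12.3 CPM in replicate 2. Mir219a-1 and Mir219a-2, microRNAs of oligodendrocytes, averaged 2.52 ± 0.866 and 5.85 ± 0.718 CPM (SD, n = 2), and neither passed the test. Mir219a-1 was lower in replicate 1, with 1.91 CPM there against 3.13 CPM in replicate 2. Mir219a-2 had 6.36 CPM in replicate 1 against 5.34 CPM in replicate 2. Mir219b had 0 counts in replicate 1 and 1 count in replicate 2. The 5 glial genes summed to 104 CPM in replicate 1 against 46.8 CPM in replicate 2, 2.23-fold higher in replicate 1. Most of that sum came from Mir138-1 and Mir138-2, and whether their reads came from glia was not tested. Mir218-1 and Mir218-2, microRNAs of motor neurons, had 4 and 11 counts in replicate 1 and 7 and 18 counts in replicate 2, and neither passed the test. That was 2.54 and 6.99 CPM in replicate 1 against 1.29 and 3.32 CPM in replicate 2, and the list sum was 2.07-fold higher in replicate 1. At least 1 mature product of each Mir138, Mir219a and Mir218 gene is encoded at 2 loci, and reads of that product carry the limit described for Mir9.

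Other genes enriched in neurons were split. Of 16 such genes, 10 could be tested. Among these, Mir132 was higher in replicate 1, a call lost with TMM and with DESeq2 scaling. Mir128-1 and Mir128-2 were higher in replicate 2. The shares over all genes tested were 30.2% higher in replicate 1 and 15.1% higher in replicate 2. Mir128-1, known from brain and from striated muscle, was more abundant than Mir338 in replicate 2, with 1381 CPM in replicate 1 against 1581 CPM in replicate 2. Mir132, an activity-dependent neuronal microRNA, had 193 CPM in replicate 1 against 159 CPM in replicate 2. The list median of the log2 ratio was 0.11, beside 0.15 for all genes tested (with DESeq2 size factors -0.02 beside 0.02), and Mir876 was at 0 in both libraries. At least 1 mature product of Mir128-1, Mir128-2, Mir129-1, Mir129-2, Mir7-1 and Mir7-2 is encoded at 2 loci, so these counts are uncertain too.

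Some lists of other cell types had higher sums in replicate 1, as Mir338 did, and others did not. The 6 smooth muscle and fibroblast genes summed to 132934 CPM in replicate 1 against 63422 CPM in replicate 2, 2.10-fold higher in replicate 1, of which Mir143 alone held 127590 CPM in replicate 1 against 59272 CPM in replicate 2. On that list the test placed 3 of 5 tested genes higher in replicate 1 and Mir214 higher in replicate 2. Both erythroid genes were higher in replicate 1, with sums of 2703 CPM in replicate 1 against 587 CPM in replicate 2. The test called 7 of 8 epithelial genes (6 with DESeq2 size factors), each with its higher level in replicate 1, with sums of 518 CPM in replicate 1 against 255 CPM in replicate 2. Striated muscle genes were split, 3 higher in replicate 1 (2 with DESeq2 size factors) and 5 in replicate 2. Mir133a-1 (19 counts in replicate 1, 124 in replicate 2) and Mir133a-2 (12 and 11) went opposite ways on few reads. At least 1 mature product of each Mir199 gene on the smooth muscle and fibroblast list is encoded at 3 loci, with the limit described for Mir9. Mir1a-2, Mir133a-1, Mir133a-2, Mir486, Mir143 and Mir145a had no mature sequence entry, so such sharing could not be looked up for them. Endothelial Mir126a had 93328 CPM in replicate 1 against 103367 CPM in replicate 2, and the 5 immune genes summed to 3096 CPM in replicate 1 against 2565 CPM in replicate 2, with 3 higher in replicate 1 (2 with either other scaling) and Mir146 higher in replicate 2 (with DESeq2 size factors, Mir150 as well). No gene of these 6 lists was at 0 in both libraries, and the part of these cell types in the ratio of Mir338 was not tested. Whether the genes of a list, such as Mir182, Mir183 and Mir96, are confined to the cell type it is named after was not tested either.

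**Figure D5:**
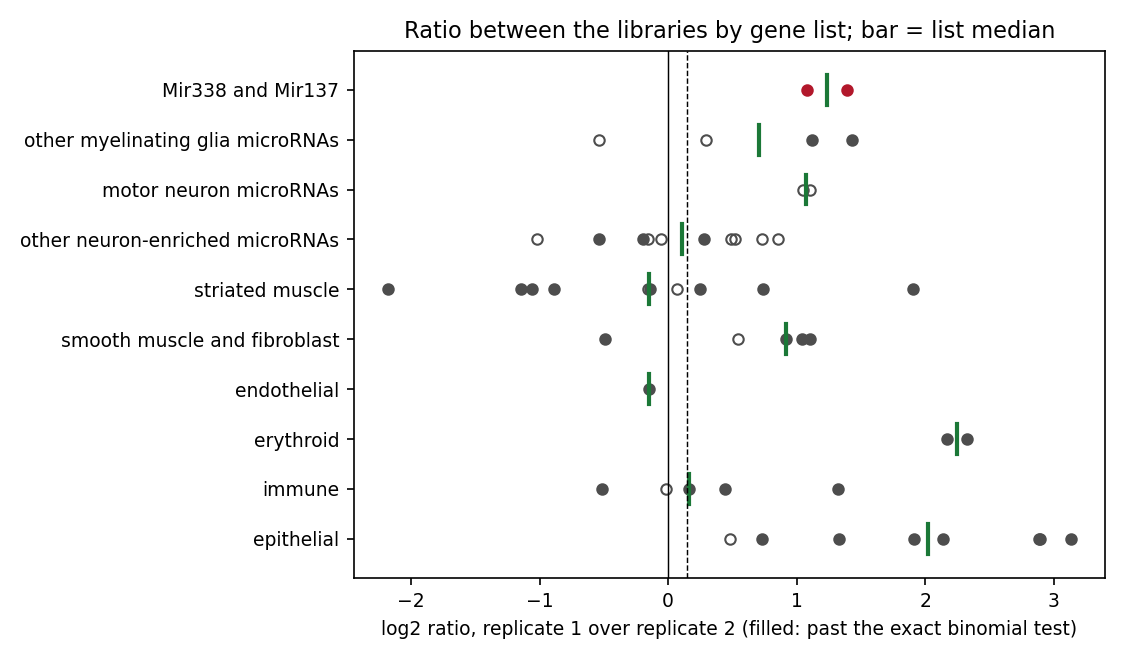
Log2 ratio of replicate 1 over replicate 2 for Mir338 and Mir137 (red) and the genes of each list, filled where the exact binomial test was passed; green bars are medians and the dashed line is the median of all genes tested (0.15). The glial, motor neuron, smooth muscle and fibroblast, erythroid and epithelial medians lie on the side of replicate 1, as do Mir338 and Mir137. These directions held with TMM and DESeq2 scaling, although neither motor neuron gene passed the test. The immune (0.16) and other neuron-enriched (0.11) medians lie on that side too, near the dashed line. With DESeq2 size factors the other neuron-enriched median was -0.02.

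Set against single tissue markers within each library, the level of Mir338 depended on the marker. There were 12.4 reads of Mir338 per 1000 reads of Mir143, a smooth muscle and fibroblast gene, in replicate 1 and 12.6 in replicate 2. Per 1000 reads of Mir126a there were 16.9 in replicate 1 and 7.25 in replicate 2. Per 1000 reads of Mir206, a gene of skeletal muscle, there were 45.3 in replicate 1 and 10.3 in replicate 2, a 4.39-fold difference. The same difference was 2.03-fold per read of Mir133b and 9.57-fold per read of Mir208b, both also genes of striated muscle, so muscle markers did not give 1 value. The ratio to Mir133b rests on few reads, 44 in replicate 1 and 146 in replicate 2. These markers were picked with their levels known, and the ratios are a description.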

How the data were processed

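For every library the authors deposited a headerless table of raw counts, with 3 count columns for each of 2202 microRNA genes and 4 tally rows. The deposited readme files name mm10 as assembly and GENCODE M21 as annotation. For aligner, counter and filters, nothing is given in the sources used here. No header names the columns; from their values, the first was taken to ignore strand, the second to count the gene's own strand and the third the other strand. The second column was used throughout. Tally rows stayed out of library totals: multiply aligned reads were 69.1%, unaligned reads 7.02% and reads outside genes 1.92% of all reads (means, n = 2). Sequences came from RefSeq (GRCm38.p6), and all 2202 identifiers matched GENCODE M21.

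With 1 library on each side, edgeR's quasi-likelihood test has no residual degrees of freedom. Genes with 10 or more counts in total were compared by an exact two-sided binomial test, library totals giving the odds, with Benjamini-Hochberg adjustment over all genes at 0.05. Ratios used an offset of 0.5 counts and level distances a pseudocount of 1 CPM. Members, 9 lists with 57 entries and naming rules (all members, list genes, the 5 genes nearest to Mir338 in level and its neighbours in rank) were chosen with earlier results of these data known. edgeR 4.0.16 and DESeq2 1.42.0 ran in R 4.3.3, and the rest in Python 3.11.15 with scipy 1.17.1.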

Additional observations from a re-analysis of the deposited data

Results flagged for a closer look

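Multiply aligned reads, which enter no gene's count, accounted for 68.6% of the reads of replicate 1 and 69.7% of those of replicate 2. How many of them came from miR-9 or miR-124 cannot be read from the tally.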

How the results depend on the processing

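No paired analysis was possible because the study has 1 group. With reads on either strand, the mean of Mir338 was 0 CPM and that of the 10 members 34.7 CPM, 1 member was detected in both libraries and 1 passed the exact test; no ratio of Mir338 could be had. With all reads, tally rows included, as denominator, Mir338 averaged 253 CPM and the members 259 CPM. At a minimum of 1 count in place of 2 CPM, 5 members were detected in both libraries; minimums of 1 and 5 CPM gave 2. Without 1 replicate, Mir338 ranged from 749 to 1581 CPM and the members from 765 to 1622 CPM, and 2 members were detected. TMM scaling moved every log2 ratio by -0.08 and DESeq2 size factors by -0.13. The log2 ratio of Mir338 was then 1.00 and 0.95, and that of Mir137 1.31 and 1.26; both passed the test under each scaling and with a summed count of at least 1 or 50. Over all genes, 162 passed with no filter on low counts and 155 with a summed count of at least 50, beside 165. Depth limits Mir3065 and Mir153, with 2 to 4 counts per library; for the Mir9 and Mir124a genes, reads of products with several loci enter no count at any depth.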
